A study of Mus musculus with 21 samples.

Results

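Cytochrome P450 enzymes of families 2 and 3 are haem proteins of the endoplasmic reticulum that oxidise drugs, steroids, retinoids and fatty acids. Their transcripts were described in whole mouse liver as 1 group of genes. The members were chosen by symbol: every Cyp2 gene and every Cyp3a gene of the count tables, without Cyp2c70 and Cyp2e1. Of 55418 gene symbols, 55 met this rule. The 41 with a mean of at least 1 CPM, the count of a gene scaled to the total of its library, in 1 of the 4 groups of livers are described here. All 41 passed the low-count filter of the test, as did 3 of the 14 others. Just inside the 1 CPM limit were Cyp2d11, with a highest group mean of 1.003 CPM, and Cyp2j8, with 1.04 CPM. Just outside it were Cyp2s1, with 0.893 CPM, and Cyp2d12, with 0.698 CPM. Cyp2c66, Cyp2j11, Cyp2j12 and Cyp2w1 had 0 reads in all 21 libraries.

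The livers came from mice with wild-type Mboat7 (WT) and from mice that lacked Mboat7 in hepatocytes (KO). Mboat7 encodes an acyltransferase that loads arachidonic acid onto lysophosphatidylinositol. On chow there were 6 WT and 7 KO livers, from mice 10 weeks old. The other 4 WT and 4 KO livers came from mice on a high-fat, methionine-low, choline-deficient diet (HFMCD). These mice were put on it at 6 to 8 weeks of age and kept on it for 6 weeks. The labels name neither the Cre driver nor the sex of the mice. Diet, age and animal number range changed together, so their effects cannot be told apart.

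In the liver most of these genes are made by hepatocytes, and many respond to the xenobiotic receptors CAR (Nr1i3) and PXR (Nr1i2) and to the pattern of growth hormone secretion, which differs between the sexes. In mice Cyp2a4, Cyp2b9, Cyp2b13, Cyp2c40, Cyp2c69, Cyp3a16, Cyp3a41a, Cyp3a41b and Cyp3a44 are known as higher in female than in male liver, and Cyp2d9 as higher in male liver. Every P450 of both families takes its electrons from the reductase Por.

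Most of the genes lie in tandem clusters of related copies (positions on GRCm38, GENCODE release M21), while Cyp2r1 and Cyp2u1 lie alone. The 12 described Cyp2c members lie on chromosome 19 from 39007019 to 44029208, and the 8 Cyp3a members on chromosome 5 from 137892932 to 146113287. Cyp2c23, which starts at 44005022, and Cyp3a13, which ends at 137921619, lie apart from the rest of their subfamilies. Chromosome 7 holds 10 members: 4 Cyp2a, 3 Cyp2b, Cyp2f2, Cyp2g1 and Cyp2r1. The 6 Cyp2d members lie on chromosome 15 from 82370527 to 82794294, the 4 Cyp2j members on chromosome 4 from 96444596 to 96664154, and Cyp2u1 on chromosome 3. Reads of such copies can be split by the counting. Of the different 50-base words in the transcripts of Cyp3a41a, 93.7% also occur in those of Cyp3a41b, so the levels of this pair cannot be kept apart. For Cyp2c40, Cyp2c67, Cyp2c68 and Cyp2c69, 60.3%, 52.8%, 43.3% and 54.3% of the words occur in another gene, for Cyp2a4 38.8% and for Cyp3a11 6.73%. The median over the described members was 14.5%. Exons of Cyp2a4, Cyp2c55, Cyp2f2 and Cyp2u1 overlap exons of an opposite-strand gene, whose reads could not be separated, since no strand setting is given.

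Several members of the same subfamily differed in their response to diet, so promoters of some of them are shown first. They are the 250 bases before the RefSeq start (GRCm38.p6), 5′ to 3′ on the strand of the gene. In the first set, capitals mark TATAAA, the core of the TATA box, and CAAAGTCCA, a strong form of the site bound by the hepatocyte factor HNF4A. Cyp3a41a (chr5:145720137-145720386, minus strand) and Cyp3a16 (chr5:145469724-145469973, minus strand) fell on HFMCD, while Cyp3a11 (chr5:145879855-145880104, minus strand) rose in WT.
Cyp3a41a: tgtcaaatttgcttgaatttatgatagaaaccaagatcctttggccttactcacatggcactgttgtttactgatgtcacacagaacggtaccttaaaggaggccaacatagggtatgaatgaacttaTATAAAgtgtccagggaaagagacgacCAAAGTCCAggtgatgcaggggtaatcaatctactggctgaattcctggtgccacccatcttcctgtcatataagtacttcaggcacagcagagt
Cyp3a16: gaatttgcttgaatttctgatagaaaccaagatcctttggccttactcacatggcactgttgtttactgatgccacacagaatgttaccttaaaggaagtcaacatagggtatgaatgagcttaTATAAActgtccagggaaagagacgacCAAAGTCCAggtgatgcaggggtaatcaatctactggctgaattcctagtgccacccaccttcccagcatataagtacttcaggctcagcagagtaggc
Cyp3a11: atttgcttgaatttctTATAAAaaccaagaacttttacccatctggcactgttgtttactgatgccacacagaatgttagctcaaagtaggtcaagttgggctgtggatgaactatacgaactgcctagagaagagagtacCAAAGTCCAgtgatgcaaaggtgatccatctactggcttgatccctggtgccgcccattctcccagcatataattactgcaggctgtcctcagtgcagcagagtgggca
From the Cyp2c cluster, Cyp2c69 (chr19:39886770-39887019, minus strand) fell and Cyp2c55 (chr19:39006769-39007018, plus strand) rose.
Cyp2c69: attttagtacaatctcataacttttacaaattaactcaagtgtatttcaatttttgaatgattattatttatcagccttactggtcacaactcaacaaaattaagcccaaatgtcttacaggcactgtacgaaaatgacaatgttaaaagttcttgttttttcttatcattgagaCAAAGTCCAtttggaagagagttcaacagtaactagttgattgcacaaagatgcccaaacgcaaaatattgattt
Cyp2c55: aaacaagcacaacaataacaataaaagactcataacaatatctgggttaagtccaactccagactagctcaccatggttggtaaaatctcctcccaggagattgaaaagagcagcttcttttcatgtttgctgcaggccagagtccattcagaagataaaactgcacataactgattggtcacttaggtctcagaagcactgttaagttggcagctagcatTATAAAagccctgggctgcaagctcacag
The pair Cyp2a4 (chr7:26306942-26307191, plus strand) and Cyp2a5 (chr7:26835089-26835338, plus strand) is shown because the promoters are nearly the same. Here capitals mark the bases that differ between both.
Cyp2a4: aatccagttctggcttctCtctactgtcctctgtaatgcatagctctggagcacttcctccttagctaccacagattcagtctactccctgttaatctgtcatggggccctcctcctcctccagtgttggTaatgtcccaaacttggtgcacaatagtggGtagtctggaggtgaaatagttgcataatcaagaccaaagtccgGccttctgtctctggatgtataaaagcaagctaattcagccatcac
Cyp2a5: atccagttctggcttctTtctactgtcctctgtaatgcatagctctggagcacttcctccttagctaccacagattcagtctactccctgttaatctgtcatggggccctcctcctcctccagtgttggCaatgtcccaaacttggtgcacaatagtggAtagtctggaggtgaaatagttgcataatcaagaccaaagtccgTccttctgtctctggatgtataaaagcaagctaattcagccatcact

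Over the 300 bases from 250 before to 50 after the start, Cyp3a41a matched Cyp3a16 at 93.7% of the bases and Cyp3a11 at 75.3%. Cyp2c69 matched Cyp2c40 at 89.0% and Cyp2c55 at 49.7%, and Cyp2a4 matched Cyp2a5 at 98%. Of the 250 bases printed for Cyp2a4 and Cyp2a5, 4 paired bases differ and 1 base of each has no partner. RefSeq promoters were found for 36 of the 41 members, 38 in all. CAAAGTCCA occurred on either strand in 8 of the 38, against 0.475% of 32851 promoters of the same length. The 8 belong to Cyp3a16, Cyp3a41a, Cyp3a41b, Cyp3a11, Cyp2c40, Cyp2c67, Cyp2c68 and Cyp2c69. Within each subfamily these promoters are related copies, so the 8 are not independent cases. Their identities ran from 56.0% (Cyp2c40 and Cyp2c67) to 97.3% (Cyp3a41a and Cyp3a41b). In Cyp3a41a CAAAGTCCA begins 95 bases before the start and in Cyp3a11 109 bases before it. The same letters thus stand in copies that fell and in 1 that rose. TATAAA occurred in 22 of the 38, against 13.6% of all promoters. It begins 29 bases before the start in Cyp2c55, but 122, 126 and 234 bases before it in Cyp3a41a, Cyp3a16 and Cyp3a11. In Cyp2c69 and Cyp2c40 it begins at bases 11 and 41 counted from the start. Whether these letters serve as a TATA box was not tested. AGGTCA and AGTTCA, hexamers bound by nuclear receptors, occurred in 14 and 7 of the 38, against 16.3% and 14%. TTCNNNGAA, the site of STAT5, and TTGCGCAA, a site of C/EBP factors, occurred in 0 of the 38, against 8.3% and 0.183%. These searches covered both strands and say only which letters stand in these windows.

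The libraries held 17502231 to 25822972 counts. Mboat7 was lower in all KO libraries than in all WT libraries of the same diet, at 21.3 CPM ± 1.77 (SD, n = 7) against 36.2 CPM ± 2.72 (SD, n = 6) on chow and 18.9 CPM ± 2.24 against 36.3 CPM ± 1.47 (SD, n = 4 each) on HFMCD. Alb, the hepatocyte gene for albumin, stood at 56868 to 97639.8 CPM in every library. All 21 libraries carried Xist, the transcript of the silenced X chromosome, at 118.5 to 1024 CPM. Ddx3y, Eif2s3y, Kdm5d and Uty, genes of the Y chromosome, stood at 0 to 0.178 CPM. Dmbt1, a gene of mucosa, stood at 27.6 to 95.6 CPM in WT chow replicates 3 and 5 and KO chow replicates 1 and 7 and below 1 CPM in the other chow libraries. KO chow replicate 7 also carried genes of striated muscle, which summed to 946 CPM there.

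Together the 55 members took 0.873% to 1.62% of the counts of a library. Their summed level was 12186 CPM ± 1738 on chow for WT (SD, n = 6), and 13949 CPM ± 1996 for KO (SD, n = 7). On HFMCD it was 12744 CPM ± 1967 for WT and 10689.5 CPM ± 2527 for KO (SD, n = 4 each). The ranges of all 4 groups overlapped, while the shares of single members differed between diets. Cyp3a11, the main drug-metabolising Cyp3a of mouse liver, took 14.1% to 23.8% of the summed level in WT on chow and 31.8% to 39.0% in WT on HFMCD. In KO livers its share was 11.7% to 31.1% on chow and 29.0% to 36.3% on HFMCD. The 9 members known as higher in females took 10.3% to 18.7% in WT and 9.43% to 19.9% in KO on chow. On HFMCD their share was 1.82% to 2.42% in WT and 1.71% to 2.97% in KO.

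Levels of different genes were compared per kilobase of exon, taken as the union of the annotated exons of a gene. This length was 5.093 kb for Cyp3a11, 2.083 kb for Cyp3a25 and 1.792 kb for Cyp2d26, and the order depends on it. Without this scaling Cyp3a11 led in WT on chow at 2389 CPM, ahead of Cyp3a25 at 1198 CPM and Cyp2d26 at 1122 CPM. In WT on chow Cyp2d26 led at 626 CPM per kb ± 67.4 (SD, n = 6), followed by Cyp3a25 at 575 ± 180 and Cyp3a11 at 469 ± 142. Cyp2c37 stood at 379 ± 81.0 and Cyp2d10 at 373 ± 21.7 CPM per kb. The SDs of neighbours in this order overlapped. In WT on HFMCD Cyp3a11 led at 882 CPM per kb ± 222 (SD, n = 4), ahead of Cyp2d26 at 429.8 ± 35.8, Cyp2c50 at 380.2 ± 59.4, Cyp2c29 at 366 ± 104 and Cyp2f2 at 364 ± 30.0. Cyp2c69 went from 218 ± 107 CPM per kb on chow to 1.28 ± 0.700 on HFMCD in WT.

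**Figure D1:**
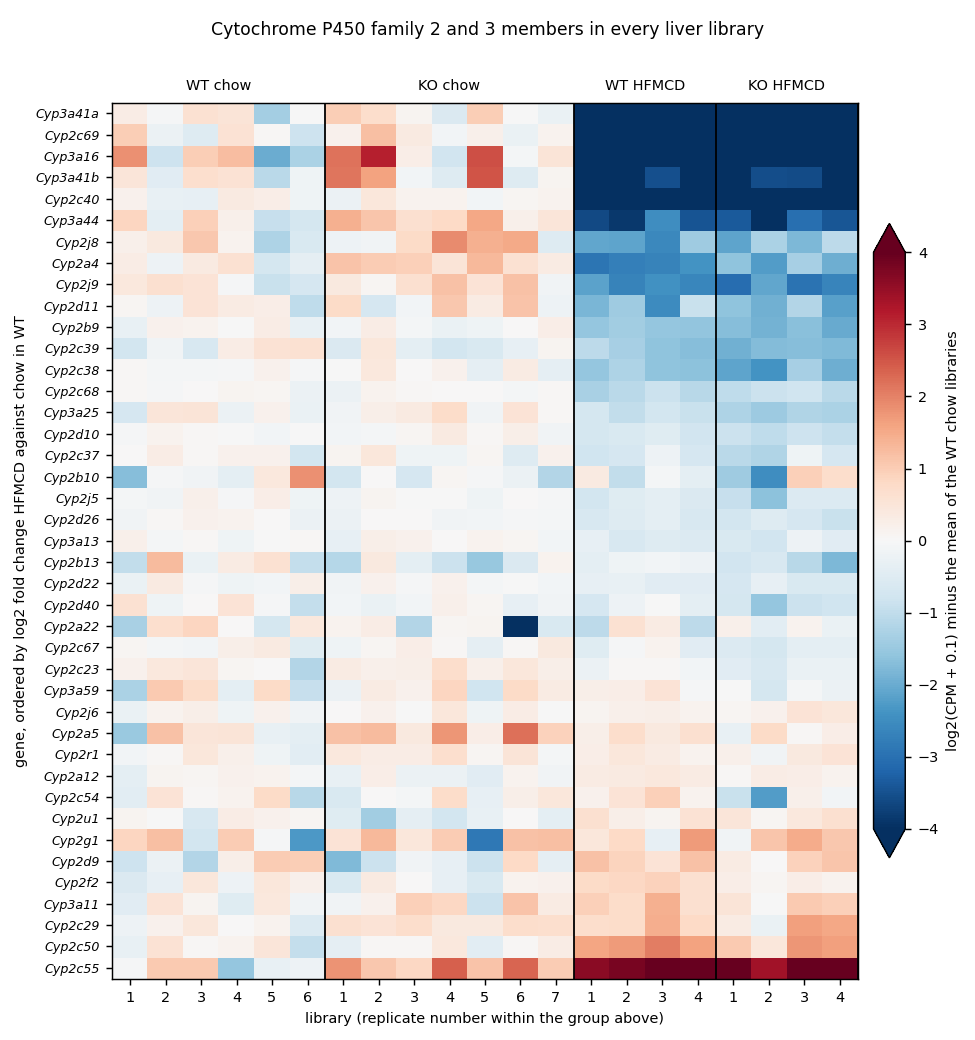
Level of the 41 described members (rows) in each of the 21 libraries (columns, by group and replicate), as log2(CPM + 0.1) minus the mean of the WT chow libraries, with red higher and blue lower and the colours capped at 4 in each direction. Rows are ordered by the log2 fold change of HFMCD against chow in WT, from Cyp3a41a (-7.60) to Cyp2c55 (4.15), and the blue block at the top right covers all 8 HFMCD libraries.

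The comparison of HFMCD with chow asked how diet changed these genes in each genotype. In WT, 6 of the 41 members rose and 21 fell, and in KO 4 rose and 25 fell. Genes were called at an adjusted p under 0.05 (edgeR quasi-likelihood test, Benjamini-Hochberg over the 15677 genes tested). Of all genes tested, 29.0% rose and 33.6% fell in WT, and 33.7% rose and 36.0% fell in KO, so the shares of members that fell were above the background and those that rose below it. The median log2 fold change of the members was -0.51 in WT and -0.75 in KO, against -0.05 and -0.02 over all genes. The members that fell in WT, 21 in number, all fell in KO too, and Cyp2a12, Cyp2c50 and Cyp2c55 rose in both. How many of all genes were called in both genotypes was not counted, so this overlap has no background beside it. The WT and the KO comparison share no library. Both come from 1 fit, however, and in both diet, age and animal number range changed together.

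The largest falls were in the Cyp3a and Cyp2c clusters and in members known as higher in females: 8 of those 9 genes fell in each genotype. This set was named from textbook knowledge after the values were seen, so its counts describe it and support nothing. In whole liver, fewer hepatocytes and less RNA per hepatocyte cannot be told apart. Summed over 7 hepatocyte markers, levels ran from 98360 to 137024 CPM on chow and from 98947 to 115288 CPM on HFMCD. Of these 7 markers 3 were called lower in WT and 4 in KO, and 0 higher. Alb makes up most of the sum. Markers of macrophages summed to 185 to 491 CPM on chow and to 1206 to 1600.3 CPM on HFMCD, with 7 of 8 called higher in WT and 6 of 8 in KO. For stellate cells and fibroblasts the sums were 212 to 448 CPM and 1124 to 1644 CPM, with 7 of 8 called higher in each genotype. The part of these other cells in the results was not tested.

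Cyp3a41a, Cyp3a41b, Cyp3a16 and Cyp3a44 encode steroid- and drug-oxidising enzymes of the Cyp3a cluster. In WT on chow Cyp3a41a had a lowest, median and highest level of 10.9, 30.9 and 43.2 CPM, and in KO 18.7, 30.2 and 55.4 CPM. On HFMCD it stood at 0.0824, 0.156, 0.202 and 0.162 CPM in the 4 WT libraries and at 0.397, 0.110, 0.435 and 0.113 CPM in the 4 KO libraries. Every HFMCD library was below every chow library of its genotype. The fold change was 194-fold lower in WT (log2 -7.60, SE 0.61, edgeR adjusted p = 4.7e-09) and 136-fold lower in KO (log2 -7.09, SE 0.55, edgeR adjusted p = 2.0e-09). Its near copy Cyp3a41b had 197 reads in the 6 WT chow libraries together and 1 read in the 4 WT HFMCD libraries. In KO it had 522 reads on chow and 2 on HFMCD. The ratio of chow to HFMCD was 165 in WT (exact 95% interval 29.3 to 6559) and 196 in KO (53.9 to 1619), where the intervals cover counting error only.

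Cyp3a16, known from fetal and female mouse liver, varied widely on chow, with a lowest, median and highest level of 6.74, 34.2 and 95.7 CPM in WT and 15.5, 38.5 and 229.8 CPM in KO. On HFMCD it stood at 0.371, 0.195, 0.323 and 0.122 CPM in WT and at 0.0794, 0.147, 0.253 and 0.151 CPM in KO. Even with a 14.2-fold spread among the WT chow libraries, no HFMCD library reached a chow library. The log2 fold change was -7.31 in WT (SE 1.31, edgeR adjusted p = 0.00011) and -9.07 in KO (SE 1.37, edgeR adjusted p = 1.5e-05), and in limma-voom the KO value was -8.71 with an adjusted p of 0.055. Cyp3a44 kept a measurable level. It ran at 70.1, 128 and 259 CPM (lowest, median, highest) in WT on chow and at 153, 230.1 and 391 CPM in KO. The 4 HFMCD libraries had 11.0, 9.18, 23.7 and 12.1 CPM in WT and 12.9, 5.40, 16.4 and 12.3 CPM in KO, all below the chow libraries. It was 10.8-fold lower in WT and 22-fold lower in KO (log2 -3.44 and -4.46, SE 0.47 and 0.49, edgeR adjusted p = 6.0e-06 and 3.1e-07).

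Within the Cyp2c cluster Cyp2c69 and Cyp2c40 nearly vanished on HFMCD. Cyp2c40 is known to oxidise arachidonic acid. Cyp2c69 had a lowest, median and highest level of 188, 318 and 673 CPM in WT on chow and 283, 381 and 770.1 CPM in KO. On HFMCD it stood at 1.03, 3.09, 3.35 and 1.30 CPM in WT and at 2.10, 2.10, 2.82 and 0.982 CPM in KO. The groups were far apart, with log2 fold changes of -7.40 in WT (SE 0.54, edgeR adjusted p = 1.7e-09) and -7.71 in KO (SE 0.54, edgeR adjusted p = 6.0e-10). Cyp2c40 stood at 159 to 252 CPM (median 199) in WT on chow and at 170.0 to 269 CPM (median 218) in KO. On HFMCD its levels were 5.11, 5.20, 6.37 and 5.31 CPM in WT and 6.35, 9.63, 8.33 and 5.36 CPM in KO. Its log2 fold changes of -5.19 in WT (SE 0.20, edgeR adjusted p = 7.9e-15) and -4.84 in KO (SE 0.19, edgeR adjusted p = 3.8e-15) had the smallest adjusted p of all members. Their neighbours fell less or did not pass the test. Cyp2c68 fell by 1.08 and 0.93 on the log2 scale in WT and KO, and Cyp2c67 stood at -0.21 for WT (edgeR adjusted p = 0.25) but fell by 0.56 for KO (edgeR adjusted p = 0.0029). Since the 4 genes share 43.3% to 60.3% of their words with other genes, reads of 1 may count for another.

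Cyp2a4, a steroid hydroxylase, and Cyp2b9 fell less steeply. Cyp2a4 levels had a lowest, median and highest value of 152, 257 and 371 CPM in WT on chow and 309, 477 and 602 CPM in KO. On HFMCD the WT libraries stood at 32.5, 36.7, 38.2 and 46.5 CPM and the KO libraries at 80.9, 52.6, 98.2 and 63.3 CPM. These ranges did not overlap with chow, and Cyp2a4 was 6.70-fold lower in WT and 6.12-fold lower in KO (log2 -2.74 and -2.61, SE 0.26 for both, edgeR adjusted p = 3.0e-08 and 2.8e-08). Its near copy Cyp2a5, a coumarin hydroxylase, had log2 fold changes of 0.28 in WT (SE 0.42, edgeR adjusted p = 0.59) and -1.04 in KO (SE 0.43, edgeR adjusted p = 0.040). The KO call of Cyp2a5 ended when any of 6 libraries was left out: KO HFMCD replicates 1, 3 and 4 and KO chow replicates 2, 4 and 6, with adjusted p up to 0.11. It also ended without the 4 Dmbt1-rich chow libraries (adjusted p = 0.061), with upper-quartile scaling (adjusted p = 0.056) and with no low-count filter (adjusted p = 0.085). Cyp2b9 fell from 428 CPM ± 73.9 (SD, n = 6) to 148 ± 8.46 (SD, n = 4) in WT and from 423 ± 63.6 (SD, n = 7) to 119.7 ± 12.8 (SD, n = 4) in KO. That is 2.90-fold and 3.53-fold, with no overlap. Cyp2b13 was the exception among the 9, with log2 fold changes of -0.45 in WT (SE 0.43, edgeR adjusted p = 0.37) and -0.59 in KO (SE 0.42, edgeR adjusted p = 0.22).

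**Figure D2:**
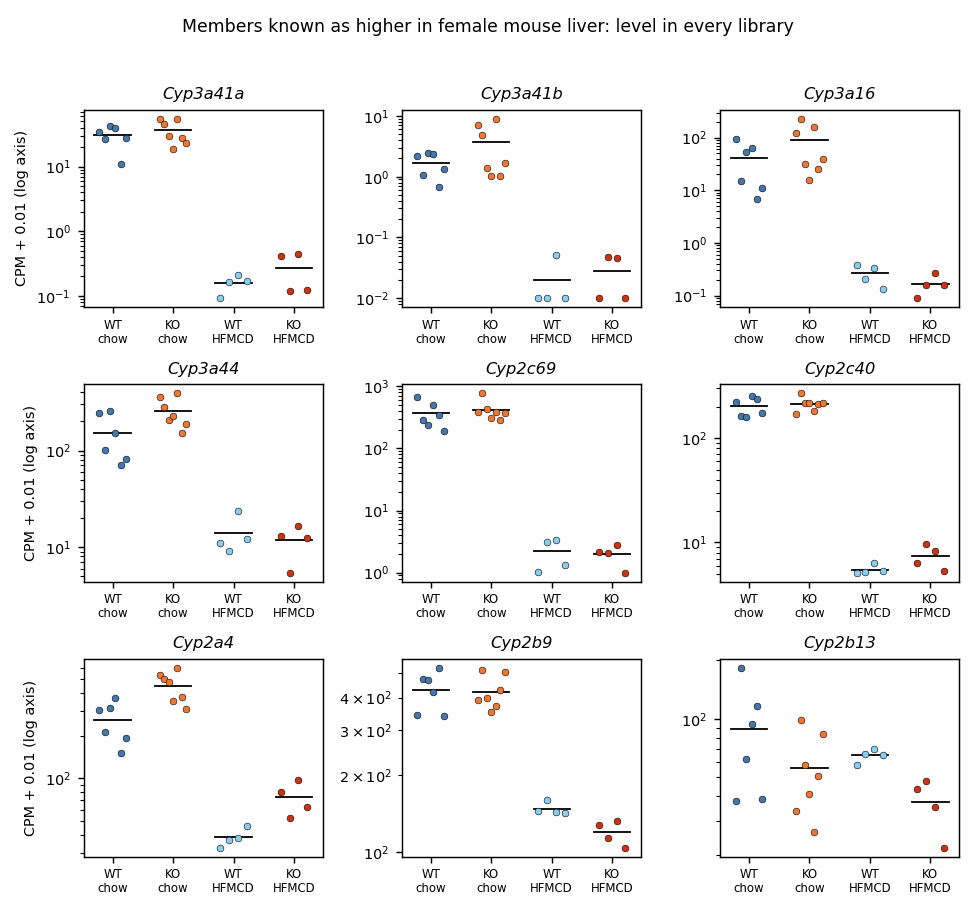
Level in CPM + 0.01 (log axis) of the 9 members known as higher in female mouse liver, in every library of the 4 groups, with a line at the group mean. For 8 genes the HFMCD points lie below all chow points of the same genotype, from Cyp3a41a at 10.9 CPM or more on chow and 0.435 CPM or less on HFMCD to Cyp2b9, while those of Cyp2b13 overlap.

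Other genes with a known sex difference were followed beside these. Of 15 female-biased liver genes outside the P450 members, 12 fell in WT, while in KO 10 fell and 1 rose. The list holds Cux2, also counted among the regulators. Those that fell include the sulfotransferase Sult3a1 (log2 fold changes -7.46 in WT and -9.36 in KO) and the transcription factor Cux2 (-4.02 and -3.14). Of 14 tested male-biased genes, 4 rose and 3 fell in WT, and 3 rose and 6 fell in KO. Over all genes tested, 29.0% rose and 33.6% fell in WT, and 33.7% rose and 36.0% fell in KO. Against this, the female-biased list fell more often in both genotypes, and the male-biased list did not rise more often in either. Mup20, which encodes a male urinary protein, rose by 6.11 and 5.0 on the log2 scale. Cyp2d9, a testosterone hydroxylase, did not pass the test, with 0.74 in WT (SE 0.45, edgeR adjusted p = 0.16) and 0.98 in KO (SE 0.43, edgeR adjusted p = 0.053). The KO value was called in DESeq2, limma-voom and the fit with upper-quartile scaling, and the WT value in limma-voom. Xist fell by 1.49 in WT and 1.53 in KO and was still at 118.5 CPM or more in each library.

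The other falls called in both genotypes were in the Cyp2c, Cyp2d, Cyp2j and Cyp3a subfamilies. In Cyp2j, 3 of 4 members fell. Cyp2j9, an arachidonic acid oxidase, stood at 14.8, 31.8 and 42.8 CPM (lowest, median, highest) in WT on chow and at 24.8, 39.9 and 63.0 CPM in KO. On HFMCD it stood at 6.18, 4.22, 5.04 and 4.46 CPM in WT and 3.26, 6.51, 3.44 and 4.38 CPM in KO. With no overlap, it fell 6.00-fold in WT and 9.70-fold in KO (edgeR adjusted p = 4.9e-06 and 2.1e-07). Cyp2j8, close to the level limit, fell by 3.37 and 3.14 on the log2 scale, and Cyp2j5, an arachidonic acid epoxygenase, by 0.55 and 0.80. Cyp2j6 did not pass the test, at 0.16 and 0.21.

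Among the Cyp2d members, 4 of 6 fell in WT and 5 of 6 in KO. Cyp2d26, the highest of all members per kilobase in WT on chow, fell from 1122 CPM ± 121 (SD, n = 6) to 770.1 ± 64.1 (SD, n = 4) in WT and from 1059 ± 64.0 (SD, n = 7) to 686 ± 70.2 (SD, n = 4) in KO. Cyp2d10 fell by 0.64 in WT and 0.98 in KO on the log2 scale, Cyp2d22 by 0.40 and 0.55, and the scarce Cyp2d11 by 2.07 and 2.70. Cyp2d40 was called in KO, at -0.85, while its WT value was -0.38 (edgeR adjusted p = 0.14). Cyp3a25 and Cyp3a13 fell too, with log2 fold changes of -0.89 and -0.51 in WT and -1.55 and -0.53 in KO. Cyp3a59, which shares words with Cyp3a25, was not called, at 0.02 and -0.52.

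Falls within Cyp2c also took in genes for enzymes that oxidise retinoids and arachidonic acid. Cyp2c39, a retinoic acid hydroxylase, fell by 1.5 in WT and 1.55 in KO on the log2 scale, and its neighbour Cyp2c38 by 1.5 and 1.95. Cyp2c37 fell by 0.60 and 0.75. Its WT call ended without WT HFMCD replicate 1 (adjusted p = 0.061), without WT chow replicate 2 (adjusted p = 0.058), without the 4 Dmbt1-rich chow libraries (adjusted p = 0.066) and with no low-count filter (adjusted p = 0.074). Cyp2c23, an epoxygenase, was called lower in KO, at -0.75 (edgeR adjusted p = 0.0023), and not in WT, at -0.15 (edgeR adjusted p = 0.52). Tested directly, the genotypes differed by -0.60 (SE 0.28, edgeR adjusted p = 0.48), so a difference was not shown.

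Another set of 7 members is known to respond to activators of CAR: Cyp2b10, Cyp2c29, Cyp2c37, Cyp2c50, Cyp2c54, Cyp2c55 and Cyp3a11. This set, also named after the values were seen, had 4 members higher and 1 lower in WT, and 2 higher and 1 lower in KO. Of all genes tested, 29.0% rose in WT and 33.7% in KO. The share of the set that rose was above this background in WT and not in KO. In WT the summed level of the 7 members ran from 3269 to 5621 CPM on chow (median 4023). On HFMCD it ran from 6234 to 9988 CPM (median 6776), without overlap. In KO it ran from 3159 to 7106 CPM on chow (median 5204) and from 3539 to 8585 CPM on HFMCD (median 6504). These ranges overlapped over most of their length. Cyp3a11 makes up the larger part of this sum. In WT on chow its median share of all members was 19.7%, where the set had 33.6%. In WT on HFMCD these shares were 34.4% and 56.5%. The sum does not show that all 7 rose: Cyp2c37 fell, and Cyp2b10 and Cyp2c54 were not called.

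Cyp2c55 had the largest rise of all members. It stood at 0.0944, 0.416 and 1.07 CPM (lowest, median, highest) in WT on chow and at 0.909, 1.13 and 2.83 CPM in KO. On HFMCD its levels were 6.84, 7.78, 14.7 and 10.5 CPM in WT and 10.8, 5.62, 19.9 and 31.9 CPM in KO. All HFMCD libraries lay above all chow libraries, and the rise was 17.8-fold in WT (log2 4.15, SE 0.52, edgeR adjusted p = 1.2e-06) and 10.2-fold in KO (log2 3.35, SE 0.44, edgeR adjusted p = 1.4e-06). Cyp2c50 stood at 170.2 to 497 CPM (median 357) in WT on chow and at 248 to 444 CPM (median 345) in KO. It rose to 988, 1078, 1363 and 1009 CPM in WT and to 688, 458, 1131 and 1044 CPM in KO, without overlap, by 3.14-fold and 2.43-fold (edgeR adjusted p = 1.9e-05 and 0.00015).

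Cyp2c29, an arachidonic acid epoxygenase, and Cyp3a11 rose in WT by 1.90-fold and 1.88-fold (edgeR adjusted p = 0.0074 and 0.018). Cyp3a11 stood at 1638, 2282 and 3373 CPM (lowest, median, highest) in WT on chow and at 4451, 3843, 6099 and 3584 CPM in WT on HFMCD, with no overlap. In KO it stood at 1281, 2886 and 5125 CPM on chow and at 3307, 2267, 4742 and 4429 CPM on HFMCD, and these ranges overlapped. The KO log2 fold changes were 0.20 for Cyp3a11 (SE 0.31, edgeR adjusted p = 0.58) and 0.44 for Cyp2c29 (SE 0.27, edgeR adjusted p = 0.15). The differences between the genotypes were -0.71 (SE 0.45, edgeR adjusted p = 0.65) and -0.48 (SE 0.39, edgeR adjusted p = 0.75). Without WT HFMCD replicate 3, the library highest in both genes, the WT value of Cyp3a11 was 0.73 with an edgeR adjusted p of 0.075.

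Cyp2b10, the textbook target of CAR, did not pass the test. Its libraries ran from 19.2 to 220.2 CPM in WT on chow and stood at 80.9, 31.6, 59.1 and 47.5 CPM in WT on HFMCD. The KO HFMCD libraries were spread from 11.1 to 121 CPM. The log2 fold changes were -0.58 in WT (SE 0.63, edgeR adjusted p = 0.44) and 0.38 in KO (SE 0.59, edgeR adjusted p = 0.58). Cyp2c54 was not called either, at 0.37 and -0.62.

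**Figure D3:**
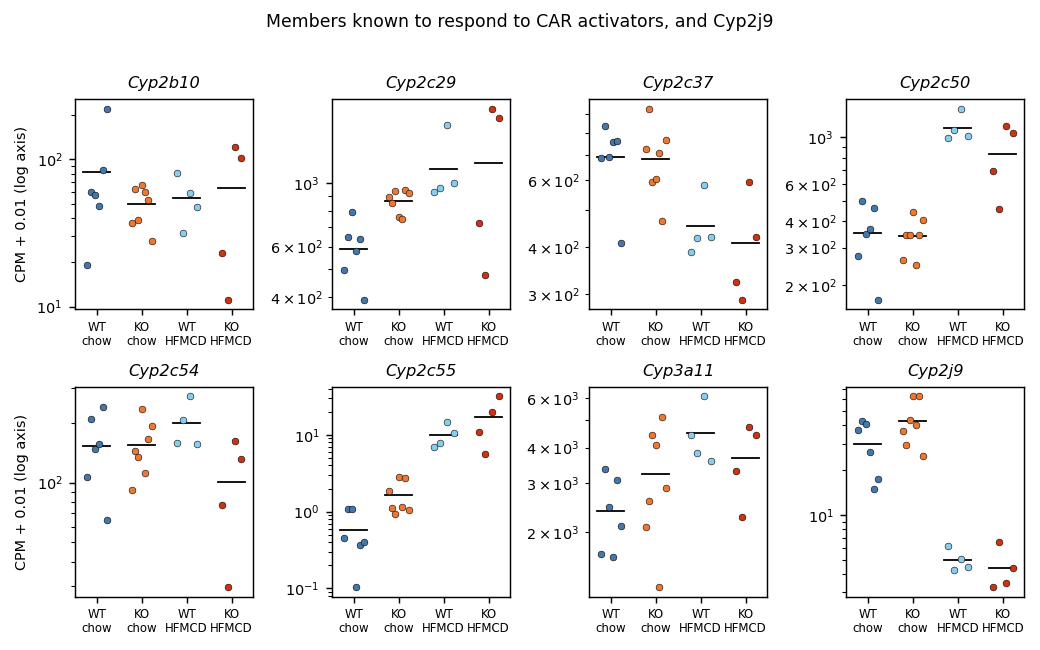
Level in CPM + 0.01 (log axis) of the 7 members known to respond to CAR activators and of Cyp2j9, in every library of the 4 groups, with a line at the group mean. Cyp2c50 and Cyp2c55 lie higher on HFMCD in both genotypes (Cyp2c55 at 5.62 CPM or more against 2.83 CPM or less), Cyp2j9 lies lower, and the Cyp2b10 groups overlap.

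Outside these sets Cyp2a12, which hydroxylates bile acids, rose by 0.34 in WT and 0.30 in KO on the log2 scale (SE 0.12 for both, edgeR adjusted p = 0.016 and 0.026). The KO call ended without KO HFMCD replicate 2 or 3, without KO chow replicate 1 or 5 (adjusted p 0.051 to 0.069), without KO chow replicates 1 and 7 together (adjusted p = 0.076) and without the 4 Dmbt1-rich chow libraries (adjusted p = 0.085). Cyp2f2, which activates naphthalene, rose in WT from 439 CPM ± 127 (SD, n = 6) to 737 ± 60.7 (SD, n = 4) and had a log2 value of 0.27 in KO (edgeR adjusted p = 0.22). Cyp2u1, a fatty acid hydroxylase, rose in KO by 0.90 (edgeR adjusted p = 0.00026) and had 0.38 in WT (edgeR adjusted p = 0.10), where it was called when the WT libraries were fitted alone. The differences between genotypes were -0.47 for Cyp2f2 (edgeR adjusted p = 0.61) and 0.52 for Cyp2u1 (edgeR adjusted p = 0.56). Cyp2r1, a vitamin D hydroxylase, Cyp2g1, an enzyme of olfactory mucosa, and Cyp2a22 were not called in either genotype, with log2 values between -0.27 and 0.48.

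Genes that regulate or serve these enzymes were counted against the same background for diet, 29.0% of all genes higher and 33.6% lower in WT and 33.7% and 36.0% in KO. Of 18 regulators, 1 rose and 11 fell in WT, and 1 rose and 13 fell in KO. CAR itself (Nr1i3) averaged 609 CPM ± 125 (SD, n = 6) in WT on chow and 135 ± 3.79 (SD, n = 4) on HFMCD. In KO the means were 619 ± 78.6 (SD, n = 7) and 92.3 ± 14.1 (SD, n = 4). It fell by 2.17 and 2.75 on the log2 scale. PXR (Nr1i2) fell by 0.87 and 1.18 and Hnf4a by 0.89 and 1.19, while the glucocorticoid receptor Nr3c1 was the regulator that rose, by 0.25 and 0.32. Of 8 electron donors and membrane partners, 2 rose in each genotype (Cyb5a and Cyb5r3), and 3 fell in WT and 4 in KO, among them Por by 1.28 and 1.14. Shares called in this list were near the background. Of 22 other P450, conjugation and transport genes of the CAR and PXR response, 7 rose and 9 fell in WT, and 7 rose and 10 fell in KO, in either direction not far from the background. Gstm3, a glutathione transferase, rose by 4.78 and 3.94, and Cyp4a14 fell by 2.28 and 2.43.

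**Figure D4:**
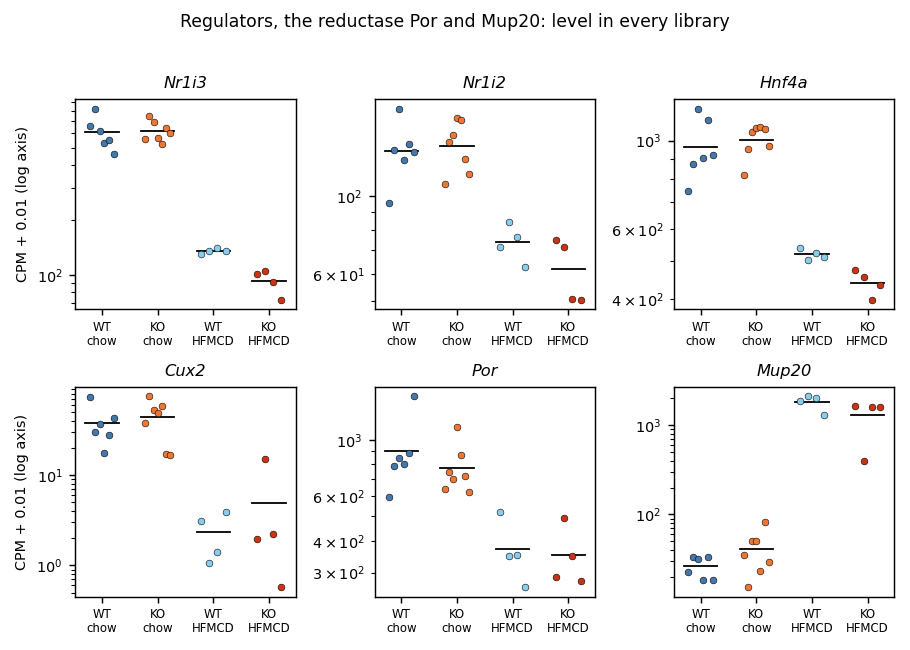
Level in CPM + 0.01 (log axis) of the regulators Nr1i3, Nr1i2, Hnf4a and Cux2, of the reductase Por and of Mup20 in every library of the 4 groups, with a line at the group mean. The HFMCD means of Nr1i3 are 135 CPM in WT and 92.3 CPM in KO against 609 and 619 CPM on chow, and Mup20 is higher on HFMCD in all libraries.

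On chow, KO livers were set against WT livers to see what loss of hepatocyte Mboat7 changed. Of the 41 members, 1 was called, against 2.17% of all genes. When the chow libraries were fitted alone, 0 members and only 2 of 14147 genes were called. An unadjusted p under 0.05 was found for 8 of the 41 members and for 2806 of the 15677 genes, which are similar shares. The median log2 fold change of the members was 0.06, against 0.01 over all genes. The called gene was Cyp2a4, whose level averaged 258 CPM ± 84.7 (SD, n = 6) in WT and 451 ± 108 (SD, n = 7) in KO. It was 1.75-fold higher in KO (log2 0.81, SE 0.20, edgeR adjusted p = 0.045). The groups overlapped: WT chow replicate 4, at 371 CPM, was above KO chow replicates 4 and 7, at 352 and 309 CPM. The call held in 6 of 21 fits with 1 library left out. It was lost without any 1 of WT chow replicates 2, 5 and 6, KO chow replicates 1 to 6, all 4 WT HFMCD libraries and KO HFMCD replicates 1 and 4, and the adjusted p over all 21 fits ran from 0.028 to 0.12. Without KO chow replicates 1 and 7 the log2 fold change was 0.84 with an edgeR adjusted p of 0.066, and without the 4 Dmbt1-rich libraries 0.78 with 0.096.

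By unadjusted p, Cyp2c55 and Cyp2u1 came next and were not called. Cyp2c55 stood at 0.0944 to 1.07 CPM (WT) against 0.909 to 2.83 CPM (KO), ranges that overlapped (log2 1.57, SE 0.52, edgeR adjusted p = 0.12; DESeq2 adjusted p = 0.031). Cyp2u1 stood at 4.19 to 8.12 CPM (WT) against 2.43 to 6.69 CPM (KO), with overlap (log2 -0.51, SE 0.18, edgeR adjusted p = 0.13). It was called without WT chow replicate 3, at -0.61 with an adjusted p of 0.047. Cyp2a5 had a log2 value of 1.06 (SE 0.37, edgeR adjusted p = 0.14). No member had all KO libraries on 1 side of all WT libraries. Cyp2c70, a bile acid hydroxylase left out by the rule, rose in KO on chow by 1.02 on the log2 scale (edgeR adjusted p = 0.0049), and Cyp2e1, which oxidises ethanol, had -0.01.

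On HFMCD the comparison of KO with WT called 0 of the 41 members, against 0.319% of all genes. An unadjusted p under 0.05 was found for 9 of the 41 members and for 1562 of the 15677 genes. Fits with DESeq2 and limma-voom, which called 1.23% and 2.05% of all genes, called 1 member each, Cyp2a4. When the 8 HFMCD libraries were fitted alone, which called 2.05% of 14424 genes, Cyp2a4, Cyp2f2 and Cyp3a25 were called among 36 members tested. The median log2 fold change of the 41 was -0.18, against 0.01 over all genes.

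Although no described member passed, Cyp2a4 was higher in each KO library (52.6 to 98.2 CPM) than in each WT library (32.5 to 46.5 CPM), and its log2 fold change was 0.94 by edgeR (SE 0.26, adjusted p = 0.16). That value stands beside 0.81 on chow, and the difference between them was 0.13 (SE 0.33, edgeR adjusted p = 0.95). In 9 of the 41 members the groups did not overlap, against 8.62% of all genes. Cyp2a4 was the 1 that lay higher in KO. The 8 that lay lower were Cyp2a12, Cyp2b9, Cyp2b13, Cyp2c23, Cyp2d10, Cyp2d40, Cyp2f2 and Cyp3a25. Cyp2f2 had 723, 758, 805 and 661 CPM in WT and 514, 452, 514 and 462 CPM in KO (log2 -0.60, SE 0.22, edgeR adjusted p = 0.33). Cyp2d10 had 379, 398, 441 and 358 CPM in WT and 339, 303, 343 and 315 CPM in KO (log2 -0.28, SE 0.10, edgeR adjusted p = 0.33). Of the genes left out by the rule, Cyp2e1 was also lower in all KO libraries (log2 -0.40, SE 0.12, edgeR adjusted p = 0.18). Cyp2c70 was higher in all of them (log2 0.42, SE 0.20, edgeR adjusted p = 0.51). Cholangiocyte markers moved with these groups: 5 of 7 tested were called higher in KO, and their sum was 190.1 to 232 CPM (WT) against 534 to 785 CPM (KO). The hepatocyte markers summed to 99439.6 to 115288 CPM (WT) against 98947 to 105746 CPM (KO), with 0 of 7 called. The part of either in the members' values was not tested.

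**Figure D5:**
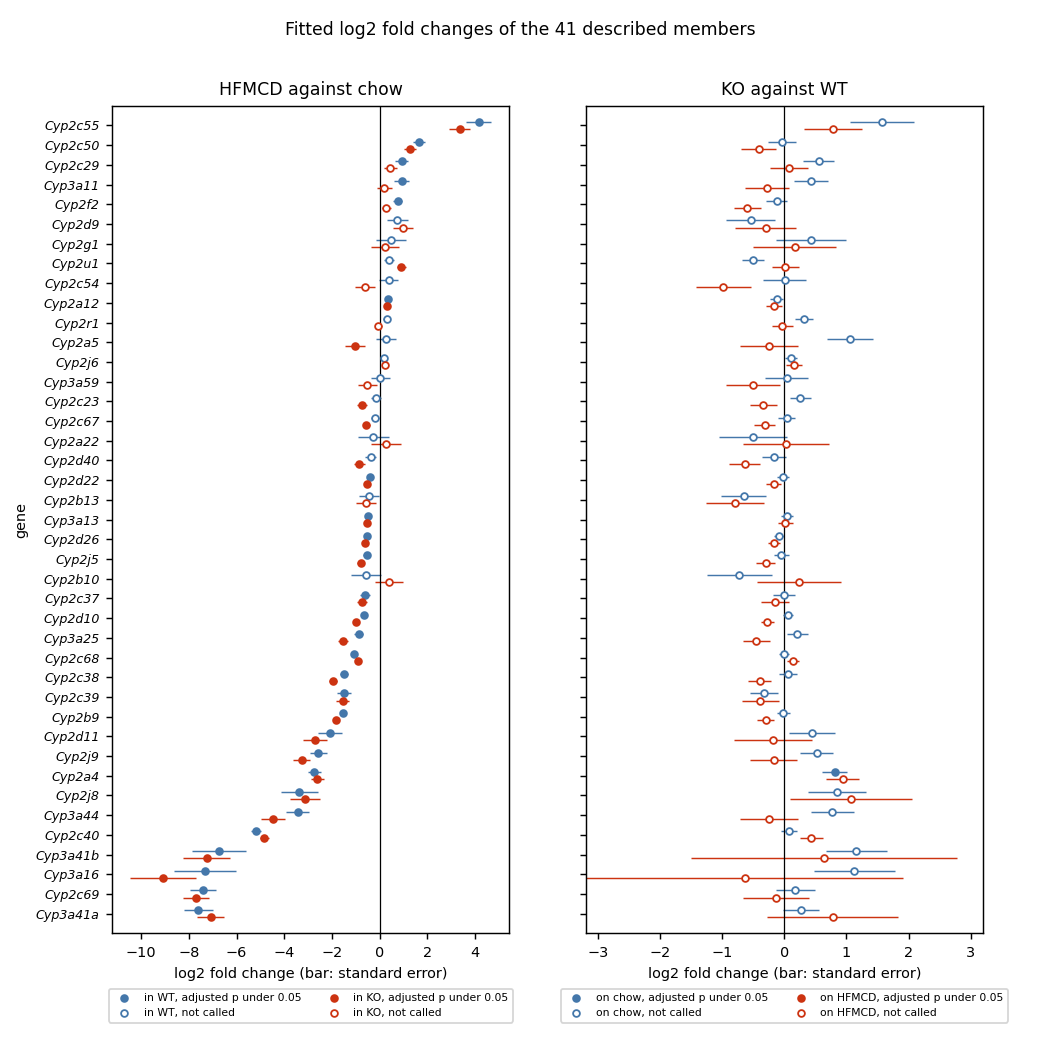
Fitted log2 fold changes of the 41 described members with their standard errors, for HFMCD against chow (left, in WT and KO) and for KO against WT (right, on chow and HFMCD). Filled points have an edgeR adjusted p under 0.05: 27 in WT and 29 in KO for diet, and for genotype only Cyp2a4 on chow (0.81).

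Whether the effect of Mboat7 loss differed between the diets was tested directly. None of the 41 members was called (0 of 15677 genes in all, 0.0%), and 4 had an unadjusted p under 0.05. The smallest adjusted p was 0.37, for Cyp2d10, with 0.06 on chow and -0.28 on HFMCD. DESeq2 and limma-voom also called 0 members, while they called 97 and 10 of the 15677 genes. Over all genes 1581 had an unadjusted p under 0.05. The contrasts share libraries, so their values are given side by side and not as support for each other.

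The libraries of a group differed among themselves, and some of them did so across many members. The coefficient of variation had a median over the 41 members of 32.8% in WT and 26.6% in KO on chow, and of 17.6% and 30.6% on HFMCD. On chow the widest spreads in WT were those of Cyp2g1, at 32.6-fold, Cyp3a16, at 14.2-fold, and Cyp2b10, at 11.4-fold between the lowest and the highest library. Among the WT HFMCD libraries replicate 3 was highest in 23 of the 41 members. Among the KO HFMCD libraries replicate 2 was lowest in 24 and replicate 3 highest in 21. KO HFMCD replicate 2 had 29.8 CPM of Cyp2c54 where the other 3 had 77.0 to 163 CPM, and 11.1 CPM of Cyp2b10 where the others had 23.2 to 121 CPM. These counts describe libraries and were not tested.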

How the data were processed

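RNA-seq of whole liver was analysed in 21 libraries, 1 per mouse by the labels' animal numbers. The authors deposited raw read counts per gene symbol. CASAVA 2.17, STAR 2.6.1d, featureCounts 1.6.1 and GRCm38 are named, without roles, per the submitters' processing notes. The annotation release and strand setting are not given in the sources used here. Counts of near-identical copies can be split by such counting, and reads carry no molecule identifiers.

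From the counts, 15677 genes passed filterByExpr (edgeR 4.0.16, R 4.3.3). A quasi-likelihood model with 4 group means was fitted to all libraries after TMM scaling, 5 contrasts were tested two-sided, and p was adjusted by Benjamini-Hochberg over all genes of a contrast. Each SE is the absolute log2 fold change over the root of its F statistic. CPM is relative to TMM-scaled totals over tested genes. The script was tested on simulated data. Totals ran from 17502231 to 25822972 counts. No pair of libraries was identical.

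Alternatives were DESeq2 1.42.0, limma-voom (limma 3.58.1), RLE and upper-quartile scaling, no filter, at least 1 CPM in 4 libraries, compared groups only, an added log2 threshold of 1, and libraries left out. Leaving out the 4 Dmbt1-rich chow libraries was chosen after seeing the data.

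Members, gene lists and tests were chosen with earlier results of these data known. All described members were named. Values by library were given for the largest called changes per contrast or, with fewer than 3 calls, for the smallest p. Others given by library (Cyp2a4, Cyp2j9, Cyp2c50, Cyp3a11 and Cyp2b10 for diet, and members of the CAR set) were chosen after their values were seen.

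Positions and exon lengths came from GENCODE M21 and promoters from RefSeq (GRCm38.p6). Promoters were aligned end to end. Words of 50 bases were compared between all transcripts.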

Additional observations from a re-analysis of the deposited data

Results flagged for a closer look

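In 9 of 164 tested groups of libraries (41 members in 4 groups), 1 library stood far from the rest on the scale of log2(CPM + 1), where chance gives about 1 in 20, or 8.2. The values in brackets are the gap of that library to its nearest neighbour as a share of the whole range. In KO on chow, Cyp2a22 was 0.268 CPM in replicate 6 and 12.8 to 35.4 CPM in the others (0.712). Cyp2c69 was 770.1 CPM in KO chow replicate 2 against 283 to 432 CPM (0.577). Cyp2g1 was at 0 reads in KO chow replicate 5 against 0.909 to 1.69 CPM (0.654). WT chow replicate 6 was lowest for both Cyp2c23, at 84.4 CPM against 195 to 267 CPM (0.728), and Cyp2c37, at 410.1 CPM against 689.7 to 835 CPM (0.731). Cyp2u1 was 4.19 CPM in WT chow replicate 3 against 6.45 to 8.12 CPM (0.641). Cyp3a41a was 10.9 CPM in WT chow replicate 5 against 27.1 to 43.2 CPM (0.654). WT HFMCD replicate 3 was highest for Cyp2c29, at 1595 CPM against 931 to 1000.1 CPM (0.867), and held the only read of Cyp3a41b in that group (1).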

How the results depend on the processing

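The direction of each called member stayed the same under all alternatives that were run. The number of members called in KO against WT on chow (1) was 0 under upper-quartile scaling and with no filter. It was also 0 without KO chow replicates 1 and 7 and without the 4 Dmbt1-rich chow libraries. With the compared groups only it was 0 too, but that fit called only 2 of 14147 genes. An added log2 threshold of 1 left 0 members and 0 of 15677 genes. The number was 2 in DESeq2 (Cyp2a4 and Cyp2c55), which called 4.5% of all genes, and 0 to 2 with 1 library left out. For KO against WT on HFMCD (0 members called) the number was 1 in DESeq2, 1 in limma-voom and 3 in the fit of the compared groups only. Those fits called 1.23%, 2.05% and 2.05% of all genes. With any 1 library left out it was 0. The added log2 threshold left 14 members for diet in WT (27 otherwise) and 15 in KO (29 otherwise), since it asks for a larger change. With 1 library left out, 26 to 28 members were called in WT and 27 to 30 in KO, and 25 and 27 of the original calls held in all such fits. The difference of the KO effect between diets gave 0 members in every fit. The cause of the other changes was not tested. Median shifts over all genes between TMM and other scalings were at most 0.08 on the log2 scale. Upper-quartile scaling ended the call of Cyp2a5 and added Cyp2d9 and Cyp2j6 in KO for diet. With no filter Cyp2a5 in KO and Cyp2c37 in WT were not called for diet. Cyp2u1 was called in WT when the compared groups were fitted alone, and Cyp2d9 in WT in limma-voom. For the scarce members Cyp2j8, Cyp2d11, Cyp2g1, Cyp3a41b and, on HFMCD, Cyp3a16 and Cyp3a41a, read number limits the precision. No paired analysis was possible because the labels number each animal once and tie no KO mouse to a WT mouse.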

Other observations

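Other gene lists were counted for diet against the background of all genes, of which 29.0% were higher and 33.6% lower in WT and 33.7% and 36.0% in KO. Of 7 acute-phase genes, which the liver makes in inflammation, 5 rose in WT, while in KO 5 rose and 1 fell. Of 10 pericentral hepatocyte genes outside the members, 3 rose and 6 fell in WT, and 0 rose and 6 fell in KO. Of 8 periportal genes, 1 rose and 5 fell in each genotype. In both the pericentral and the periportal list, the share that fell was above the background in each genotype. The share that rose was near the background among pericentral genes in WT and below it otherwise. Neutrophil markers rose in 3 of 3 tested genes in each genotype, with sums of 1.23 to 9.23 CPM on chow and 10.1 to 22.7 CPM on HFMCD. These lists were chosen with earlier results known, and their counts are given without a test of the list.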
